A study of Mus musculus with 6 samples.

Results

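The genes switched on by type I interferon were followed through the CD45+ (leukocyte) cells of digested inflamed mouse joints. The gene table was searched by symbol for 33 of these interferon-stimulated genes (ISGs), and 32 were present among its 20394 genes. The 33rd, Mx2, was not analysed here. Membership was set by symbol alone, from a list drawn up with earlier results of these data known. Antigen-induced arthritis was raised in male C57BL/6 mice, 8 weeks old at purchase, by immunization with 10 µg of methylated bovine serum albumin (mBSA) in complete Freund's adjuvant and injection of 100 µg of mBSA into the knee joint on day 21. The 2 control samples came from mice given the vehicle PBS, and the 4 treated samples from mice given 300 µg of PEPITEM, an immune-regulatory peptide, from the day of the joint injection. All 6 samples therefore carried the arthritis, and no unimmunized joint was included. Isolated joints were digested for their synovial cells 3 days after the joint injection. CD45+ cells were sorted by flow cytometry, and the RNA of single cells was counted at the 3′ end with unique molecular identifiers (UMIs). The labels do not say how many mice made up 1 sample.

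The deposited matrix pooled 32953 cells from 6 libraries, numbered 1 to 6 at the end of each cell barcode. The labels name the libraries in another way, so no library could be assigned to PBS or PEPITEM, and no comparison of the treatments was made. Libraries held 2919 to 9345 cells, 47273569 to 123367661 UMIs and a median of 9923 to 14001 UMIs per cell, and 138 barcodes occurred in more than 1 library. Cells were placed in 22 classes by counting panels of lineage genes, none of them an ISG studied here; the class names describe these panels and not sorted populations. The classes held 26955 cells (81.8%), while 4348 cells (13.2%) passed the panels of more than 1 lineage and 1650 (5.01%) passed none. Ptprc, which encodes CD45, had a UMI in 95.8% of all cells, but in 9% of the 100 fibroblast-gated cells. Precursor classes were present, with 252 stem and progenitor cells, 862 B precursors and 1695 myeloid precursors. The part of the joint that a cell came from was not measured, so levels and class differences are not those of synovium alone. Levels are given as CPM, the counts of a gene per 1000000 UMIs of a class or library. Each UMI marks 1 molecule of RNA, so levels can be compared between genes without a length correction. Library 1 held 4349 CPM of ISG transcripts over all cells, against 1277 to 2519 CPM in the others. Values are therefore also given without library 1 where they rest on it. A level over all cells also depends on which cells a library held, such as 196 granule-rich neutrophils in library 1 and 2359 in library 5. Within a class, the ISG sum of library 1 was 1.18 times the median of the other libraries in B cells and 2.71 times in inflammatory macrophages. Differences between libraries could not be set against replicate error within a treatment, and no p-value is given.

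Type I interferons, the IFN-α family and IFN-β among them, bind a receptor made of IFNAR1 and IFNAR2. The receptor's kinases JAK1 and TYK2 phosphorylate STAT2, which joins IRF9 in ISGF3, a transcription factor complex that binds the interferon-stimulated response element (ISRE) in promoters. The genes so induced include RNA sensors, enzymes that degrade or modify viral nucleic acid, the ubiquitin-like modifier ISG15 and the factors STAT2, IRF9 and IRF7 themselves, which prolong the response. In inflamed synovium these genes are a known feature of monocytes, macrophages and neutrophils, and plasmacytoid dendritic cells are known as strong producers of type I interferon.

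RefSeq promoter windows on GRCm38.p6, from 250 bases before to 50 bases after the transcription start, were available for 24 of the 33 genes (the others are Mx1, Mx2, Ifi204, Ifi27l2a, Zbp1, Rtp4, Usp18, Dhx58 and Parp14).
The ISRE core, GAAA followed by any 2 bases and GAAA, searched on both strands so that it can also read as TTTC, any 2 bases and TTTC, was found in 12 of the 24 windows (50%), against 3.99% of the 27025 gene symbols with a window of that length.
It lay in the windows of Isg15, Ifit1, Ifit3, Rsad2, Oas1a, Oas3, Bst2, Ddx58, Ifih1, Slfn5, Stat2 and Trim30a.
The gamma-activated site (GAS) motif, TTCNNNGAA, which reads the same on both strands, was found in 5 of 24 (20.8%) against 9.55% of these symbols.
Its 5 holders were Bst2, Ifi35, Ifit2, Isg20 and Oas1a.
Below are the 200 bases before the start of the 6 genes with an ISRE core to which the expression results return, each 5′ to 3′ on the gene's strand with the core in capitals.
Overlapping cores form 1 run of capitals.
They are Isg15 (chr4:156200819-156201018, minus strand), Ifit1 (chr19:34640689-34640888, plus strand), Ifit3 (chr19:34583329-34583528, plus strand), Rsad2 (chr12:26456453-26456652, minus strand), Oas1a (chr5:120907526-120907725, minus strand) and Bst2 (chr8:71537473-71537672, minus strand).
Isg15: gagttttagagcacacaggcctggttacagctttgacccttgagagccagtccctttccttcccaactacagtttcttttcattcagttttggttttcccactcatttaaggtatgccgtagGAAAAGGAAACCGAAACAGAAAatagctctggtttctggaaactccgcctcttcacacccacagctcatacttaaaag
Ifit1: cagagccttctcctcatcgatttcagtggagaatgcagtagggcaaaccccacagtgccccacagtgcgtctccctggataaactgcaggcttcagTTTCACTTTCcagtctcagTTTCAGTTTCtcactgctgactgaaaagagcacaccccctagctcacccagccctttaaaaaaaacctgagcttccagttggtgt
Ifit3: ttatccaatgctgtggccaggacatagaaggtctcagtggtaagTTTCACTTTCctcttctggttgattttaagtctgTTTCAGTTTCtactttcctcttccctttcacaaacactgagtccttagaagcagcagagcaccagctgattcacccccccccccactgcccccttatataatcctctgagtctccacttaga
Rsad2: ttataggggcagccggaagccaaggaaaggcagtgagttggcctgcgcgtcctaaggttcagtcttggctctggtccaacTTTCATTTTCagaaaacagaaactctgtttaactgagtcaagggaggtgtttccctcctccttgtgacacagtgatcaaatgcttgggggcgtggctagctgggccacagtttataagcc
Oas1a: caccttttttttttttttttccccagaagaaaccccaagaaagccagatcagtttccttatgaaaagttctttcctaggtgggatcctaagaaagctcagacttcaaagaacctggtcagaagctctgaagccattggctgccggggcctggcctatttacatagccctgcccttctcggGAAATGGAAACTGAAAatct
Bst2: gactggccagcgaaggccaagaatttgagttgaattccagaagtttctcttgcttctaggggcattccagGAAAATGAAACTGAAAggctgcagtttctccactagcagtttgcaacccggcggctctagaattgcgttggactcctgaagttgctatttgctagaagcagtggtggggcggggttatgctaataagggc

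Isg15 held 3 overlapping cores, whose first bases lay 78, 72 and 66 bases before the start. Ifit1 and Ifit3 held 2 separate cores each, Rsad2 held 1, and Oas1a and Bst2 held 2 overlapping ones. In Oas1a they lay closest to the start, at 20 and 14 bases. A match describes the letters in these windows, and the binding of a factor was not measured. The 32 genes lay on 14 chromosomes (GRCm38), and 9 of them had another member within 500 kb. These were Rsad2 and Cmpk2 on chromosome 12, Ifit1, Ifit2 and Ifit3 on chromosome 19, and the pairs Oasl1 with Oasl2 and Oas1a with Oas3 on chromosome 5.

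Over all cells the 32 ISGs held 2082 CPM, or 0.208% of the UMIs, and 31 of them reached 5 CPM, the minimum used for the background of all genes. The exception was Ifi44, at 2.56 CPM. The median ISG was at 35.7 CPM, against 3.77 CPM for the median gene. A few genes held much of the sum. Ifi27l2a, which encodes a small membrane protein, was at 616 CPM and held 29.6% of the ISG UMIs, followed by Bst2 (tetherin, which holds budding virions at the cell surface) at 154, Isg15 at 143 and Trim30a at 109.6 CPM. These 4 genes held 49.1%.

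Inflammatory macrophages, plasmacytoid dendritic cells and classical monocytes held the most ISG transcript. In inflammatory macrophages, gated by inflammatory and few resident markers (991 cells), the summed level was 8986, 2095, 3321, 3758, 4864 and 3009 CPM in libraries 1 to 6. The pooled 4626 CPM became 3366 without library 1, and library 2 was the lowest. Classical monocytes (3081 cells) held 8546, 2507, 3324, 3034, 3933 and 3374 CPM, 3862 pooled and 3312 without library 1. In both classes library 1 stood above the other 5, which spanned a much narrower range. Plasmacytoid dendritic cells (530 cells) differed in this respect. Their 6 values, 5105, 4078, 4273, 4547, 5330.0 and 4001 CPM, lay close together around the pooled 4406 CPM, and library 1 was not the highest. Bst2 alone gave 2676 CPM of this pooled level, so the even sum does not show how the other ISGs moved. Other ISGs of these cells could spread more, such as Isg15 (5.39 to 113 CPM) and Irf7 (46.9 to 157 CPM, highest in library 1).

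The other classes followed in a graded order. Macrophages that passed neither the resident nor the inflammatory gate, called other macrophages, held 3297 CPM. Nonclassical monocytes, which patrol vessel walls, held 2955 and type 2 dendritic cells 2678 CPM. Granule-low neutrophils, gated by few secondary-granule transcripts, which neutrophils are known to lose as they mature, held 2564 and migratory dendritic cells 2355 CPM. Resident macrophages, gated by Lyve1, Cd163, Folr2, Timd4 and Vsig4, were at 2131 CPM and T cells at 1564 CPM. Type 1 dendritic cells held 1565 CPM, with the highest library, at 5011 CPM, resting on 5 cells. The fibroblast gate held 1374 CPM. Without Ifi27l2a, resident macrophages were at 970 CPM, T cells at 943, type 1 dendritic cells at 1312 and the fibroblast gate at 1233 CPM. The place of resident macrophages above these dendritic cells and the fibroblast gate thus rested on this gene. B cells (4134 cells) stood at 966 CPM, and stem and progenitor cells at 732, B precursors at 718, mast cells at 695, granule-rich neutrophils at 689, NK cells at 676, type 2 innate lymphoid cells at 659, myeloid precursors at 617, basophils at 494 and early neutrophils at 242 CPM. All 21 neighbouring pairs in this order overlapped between libraries, so the order of neighbours is not resolved. Classes far apart were separated. The highest library of 16 classes, all neutrophil and lymphocyte classes among them, lay below the lowest library of plasmacytoid dendritic cells. Bst2 alone gave 2676 of the 4406 CPM of plasmacytoid dendritic cells, so this separation is one of the sum and not of ISGs in general. It was not computed without Bst2. The cells that passed more than 1 lineage held 2842 CPM and the unassigned cells, led by haemoglobin genes, 1957 CPM.

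**Figure D1:**
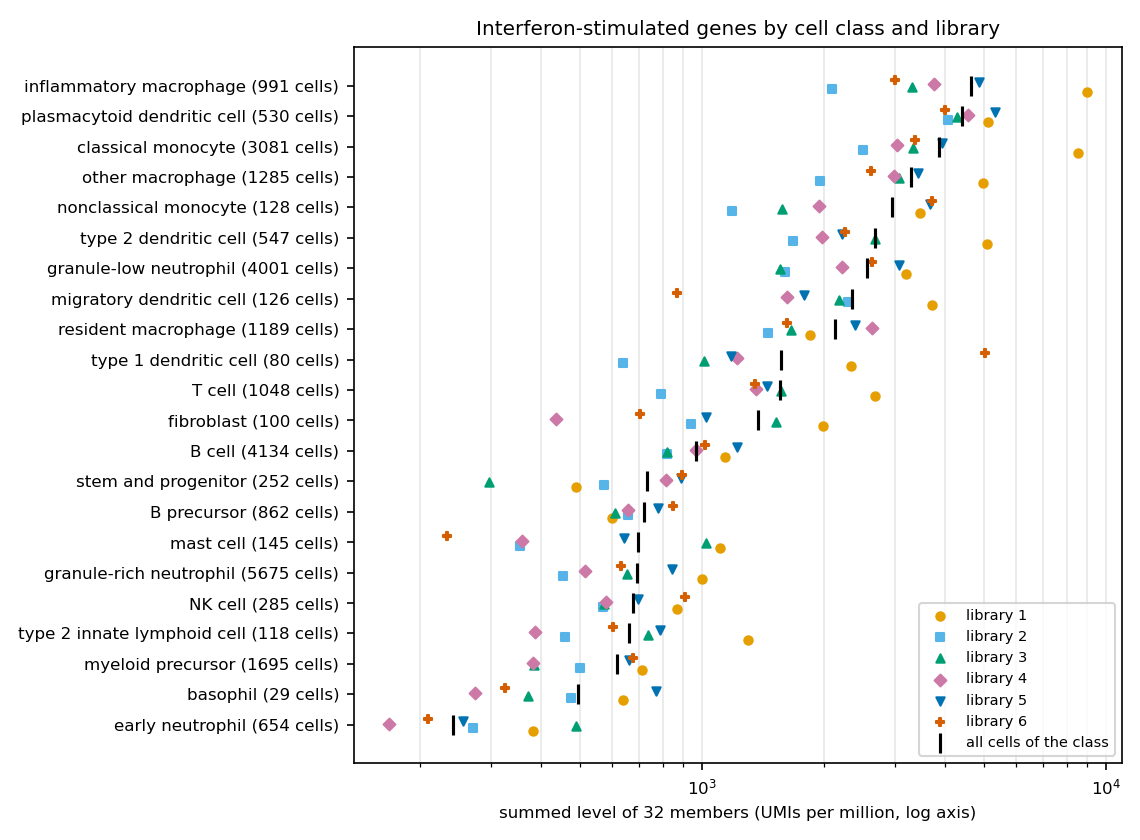
Summed level of the 32 ISGs in each of the 22 cell classes, in CPM on a log axis, with 1 point per library and the value of each class pooled over libraries as a black tick. Plasmacytoid dendritic cells span 4001 to 5330 CPM, while in classical monocytes and inflammatory macrophages library 1, at 8546 and 8986 CPM, stands above the other 5.

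The breadth of expression differed from the sum. In inflammatory macrophages 22 of the 32 ISGs were at 2 times or more of their level over all cells, against a background of 6.65% of genes, but without library 1 the count was 11 (7.28%). In classical monocytes 10 were so (background 2.32%), also 10 without library 1 (2.54%), and none was at or below 0.5 times (10.8%). Granule-low neutrophils had 8 at 2 times or more (6.29%) and 6 at or below 0.5 times (58.7%). The monocyte and macrophage counts thus exceeded the background share, and the low count in granule-low neutrophils fell short of it. Plasmacytoid dendritic cells, with one of the largest sums, had 6 genes at 2 times or more (14.0%) and 15 at or below 0.5 times (17.5%), so their sum rested on few genes. B cells had no ISG at 2 times or more (19.1%) and 22 at or below 0.5 times (19.4%). In granule-rich neutrophils 24 were at or below 0.5 times (49.4%), and in early neutrophils 29 (40.8%).

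The transcription factors Irf7, Irf9 and Stat2 were highest together in plasmacytoid dendritic cells, at 299 CPM, next to inflammatory macrophages at 289 and classical monocytes at 232 CPM. Irf7, the factor that amplifies IFN-α transcription, was at 365, 59.8, 75.2, 80.5, 112 and 89.7 CPM in monocytes of libraries 1 to 6. Irf9, the DNA-binding part of ISGF3, was at 68.7, 46.0, 52.2, 52.4, 60.3 and 62.0 CPM in the same cells. Irf7 was thus several times higher in library 1, whereas Irf9 stayed within a narrow band, the narrowest of the 32 genes in monocytes (highest over lowest library 1.5). Stat2 lay between them in its spread, at 113, 34.7, 55.5, 39.6, 57.3 and 62.4 CPM. In plasmacytoid dendritic cells, which are known to keep Irf7 at a high basal level, Irf7 was at 157, 46.9, 80.8, 97.7, 122 and 91.1 CPM.

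The IFIT proteins bind the ends of viral RNA. Summed over Ifit1, Ifit2 and Ifit3 their level was 111 CPM in inflammatory macrophages, 79.1 in monocytes, 56.7 in granule-low neutrophils, 10.0 in plasmacytoid dendritic cells and 6.08 CPM in B cells. Ifit1 was at 67.2, 13.8, 9.62, 6.74, 19.0 and 20.2 CPM in monocytes and Ifit2 at 114, 24.7, 13.5, 7.02, 27.5 and 19.1 CPM. Ifit3, whose reads may be shared with the near-identical Ifit3b, was at 119, 20.6, 9.17, 9.69, 22.4 and 18.3 CPM. Library 1 was the highest for each of the 3 genes. In the 530 plasmacytoid dendritic cells 1 UMI of Ifit3 was counted, a level of 0.152 CPM (exact 95% Poisson interval 0.00385 to 0.848, which like all such intervals covers counting error only). Its promoter window is printed above. Ifit1 was highest in the fibroblast gate, at 179 CPM from 251 UMIs in 100 cells, with 376, 0, 248, 0, 34.5 and 30.6 CPM in libraries 1 to 6 and 59.7 CPM without library 1. Libraries 1 and 3 were high and libraries 2 and 4 had no UMI, with at most 42 cells in any library.

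The OAS family makes or resembles the enzymes that make 2′-5′ oligoadenylates, the activators of RNase L. It was highest in granule-low neutrophils, at 388 CPM (libraries 205 to 460.5), against 303 in inflammatory macrophages, 208 in monocytes and 47.0 CPM in plasmacytoid dendritic cells. Oasl2 was at 220.0, 96.6, 107, 158, 229.5 and 214 CPM in granule-low neutrophils and Oasl1 at 85.1, 35.9, 20.5, 44.5, 75.9 and 63.5 CPM. Oas3 was at 101, 75.3, 72.2, 117, 137 and 136 CPM in these neutrophils, and Oas1a, which shares sequence with Oas1g, at 13.7, 6.04, 4.82, 16, 18.3 and 23.5 CPM. In monocytes Oas1a was at 133, 28.3, 30.9, 41.4, 39.3 and 46.1 CPM. The ranges of granule-low neutrophils and monocytes overlapped for the OAS sum, with 117 to 563 CPM in monocytes.

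ISG15 is attached to proteins by ligases that include HERC6 in the mouse, and is removed by USP18, which also dampens the receptor. Isg15 was at 892, 84.0, 190.2, 153, 189 and 92.8 CPM in monocytes, 479, 279.6, 207, 362, 446 and 305 CPM in granule-low neutrophils and 7.48, 3.78, 16.6, 4.17, 11.7 and 10.3 CPM in B cells. In monocytes library 1 stood over 4 times above the next library. The neutrophil values lay much closer together, and all 6 B-cell values were below every monocyte and neutrophil value. Usp18 was at 47.9, 12.5, 10.3, 11.4, 25.3 and 20.2 CPM and Herc6 at 116, 35.0, 44.0, 38.6, 46.5 and 44.2 CPM in monocytes. Library 1 was the highest for both, with a smaller gap to the next library than for Isg15.

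Among the enzymes of nucleotides and nucleic acids, Rsad2 (viperin, which makes a chain-terminating nucleotide) was at 419, 52.9, 80.9, 21.2, 61.7 and 39.4 CPM in monocytes and 259, 123, 178, 97.6, 188 and 140.1 CPM in granule-low neutrophils. Its monocyte values spread the most of the 32 genes, with a highest over lowest library of 19.8. Cmpk2, a mitochondrial nucleotide kinase encoded beside Rsad2, was at 52.0, 20.8, 13.3, 10.1, 28.6 and 25.1 CPM in monocytes, and in migratory dendritic cells it had 1 UMI. The exonuclease gene Isg20 was highest in granule-low neutrophils, at 107 CPM, next to basophils at 70.6 CPM (29 cells).

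The sensors of nucleic acid were led by inflammatory macrophages at 676 CPM and classical monocytes at 512 CPM, with 257 in resident macrophages, 195 in granule-low neutrophils and 50.4 CPM in plasmacytoid dendritic cells. Zbp1, the sensor of Z-form nucleic acid that can start necroptosis, was at 386, 77.4, 183, 136, 176 and 123 CPM in monocytes. Ifi204, a DNA sensor of a family with near-identical copies, was at 565, 155, 279, 206, 194 and 172 CPM. Both were highest in library 1 and lowest in library 2. The RNA sensors Ifih1 (MDA5), Ddx58 (RIG-I) and Dhx58 (LGP2) were lower in level, with 56.4, 35.9 and 26.7 CPM in monocytes. Ddx58 was the most even ISG of B cells, at 65.7, 63.2, 58.0, 67.5, 62.3 and 60.2 CPM, a range narrower than that of any other ISG in these cells. In plasmacytoid dendritic cells it was at 4.11 CPM.

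The other effectors made up most of the plasmacytoid sum, 3865 of 4406 CPM. Bst2, which is also the PDCA-1 surface marker of these cells, was at 2912, 2934, 2841, 2835, 2935 and 2238 CPM in plasmacytoid dendritic cells, against 397 CPM in type 2 dendritic cells, the next class. All 6 values lay far above those of type 2 dendritic cells, 653, 368, 326, 277, 384 and 398 CPM. Bst2 alone thus gave 2676 CPM of the sum. Ifi27l2a was at 2185, 1026, 1070.4, 1166, 1575 and 1407 CPM in monocytes, 497, 309, 197, 385, 692 and 618 CPM in granule-low neutrophils and 1407, 230.0, 729, 519, 548 and 169 CPM in T cells. Libraries 1 and 3 were high for this gene in T cells, and library 6 the lowest. Trim30a, a regulator of inflammatory signalling, was at 271, 119, 161, 163, 204 and 185 CPM in monocytes and 263, 249, 318, 386, 369 and 329 CPM in plasmacytoid dendritic cells. Rnf213, a giant ubiquitin ligase, was at 403, 118, 185, 150, 185 and 164 CPM in monocytes, and Parp14, an ADP-ribosyltransferase, at 211, 60.2, 114, 94.1, 90.7 and 85.6 CPM. In monocytes all 3 were highest in library 1 and lowest in library 2, whereas Trim30a of plasmacytoid dendritic cells was highest in library 4. Mx1, which in C57BL/6 mice is known to carry a deletion that removes its antiviral function, was at 0.711 CPM in granule-low neutrophils (15 UMIs) and 55.1 CPM in nonclassical monocytes, its highest class. Rtp4, a chaperone of receptors, was at 171, 66.4, 90.3, 138, 177 and 170.3 CPM in granule-low neutrophils, and 1 UMI was counted in type 1 dendritic cells. Slfn5 was at 119 CPM, Xaf1 at 58.1, Ifi35 at 75.1 and Ifi44 at 2.27 CPM in monocytes.

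**Figure D2:**
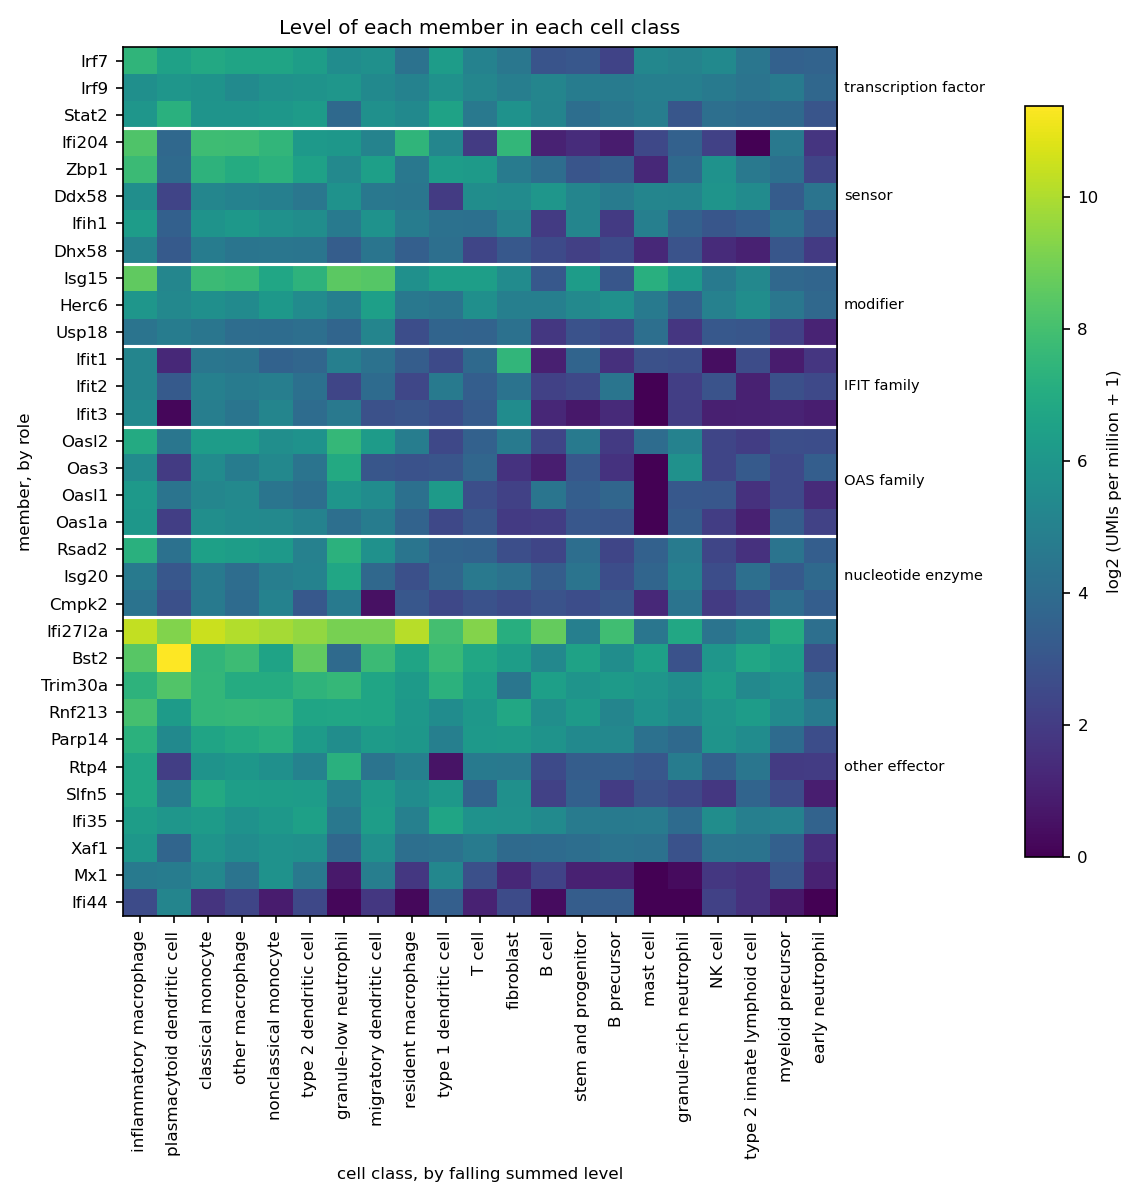
Heat map of the level of each of the 32 ISGs, in log2(CPM + 1) and grouped by role, across 21 cell classes (basophils are left out for their few cells). Bst2 is the brightest cell in plasmacytoid dendritic cells, at 2676 CPM, where Ifit3 is near 0, and Oasl2 and Oas3 are at their brightest in granule-low neutrophils.

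Of the 32 ISGs, 11 had their highest class in inflammatory macrophages, 6 in granule-low neutrophils, 4 in plasmacytoid dendritic cells, 2 each in classical monocytes, nonclassical monocytes, fibroblasts, migratory dendritic cells and type 1 dendritic cells, and 1 in B cells. No class therefore held the top level of all ISGs. The share of all genes with their highest class in each was not computed, so the counts are no result about ISGs. They come from pooled levels with library 1 included, and the fibroblast and type 1 dendritic gates held only 100 and 80 cells.

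Related classes were compared library by library, and a gene was counted as higher or lower where the ranges of the 6 libraries did not overlap. Leaving out a library can add genes to such a count but cannot remove any. The log2 ratio is that of the pooled CPM + 1, which understates the difference of genes at low level. Classical monocytes against neutrophils gave 19 of 32 ISGs higher (59.4%) and none lower, but 60.9% of all 9624 genes at or above 5 CPM were higher too. The count is near this background and is no result about ISGs. The median log2 ratio was 1.77 for the ISGs and 0.97 for all genes. With the 50 most abundant genes left out of the totals, the median of all genes moved to 0.45, and 13 ISGs were higher against 44.2% of genes. Without library 1, 21 were higher (63.7%) and 1, Isg20, lower (11.5%).

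Between macrophages the ISGs leaned to the inflammatory class. Against inflammatory macrophages, resident macrophages had 12 of 32 ISGs lower (37.5%), against 9.52% of all genes, and none higher (15.7%). All 32 log2 ratios were below 0, with a median of −1.81 against 0.06 for all genes. Zbp1 was at 7.35 to 36.6 CPM against 49.0 to 386 CPM (log2 ratio −3.20), and Irf7 at 0 to 25.1 CPM against 52.8 to 451 CPM (−3.16). Rsad2 was at 4.90 to 29.7 CPM against 44.1 to 390.2 CPM (−2.80). The 3 genes with the largest log2 differences of the 12 thus included a sensor, a transcription factor and an antiviral enzyme. The others were Oas1a (−2.40), Ifi44 (−2.37), Rnf213 (−1.97), Xaf1 (−1.89), Bst2 (−1.79), Dhx58 (−1.66), Ifi35 (−1.35), Slfn5 (−1.26) and Irf9 (−0.62). The count was also 12 without library 1 (background 10.1%), with none higher (16.6%), 24 without library 2 (14.0%) and 6 with gates that ask for 1 more marker (8.75%). Inflammatory macrophages against classical monocytes gave no ISG without overlap in either direction (6.85% of genes higher, 7.67% lower), and the median ISG log2 ratio was 0.39 (0.13 without library 1 and 0.16 with cycling cells left out) against a median near 0 for all genes. Without library 1, Bst2 was higher (9.08% of genes) and Mx1 lower (12.4%).

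Between plasmacytoid and type 2 dendritic cells most ISGs leaned to the type 2 class. Against type 2 dendritic cells, plasmacytoid cells had 2 ISGs higher (6.25%, against 15.3% of all genes) and 11 lower (34.4%, against 10.6%). Bst2 (2.75) and Trim30a (0.91) were the higher pair on the log2 scale. Ifit3 was at 0 to 0.438 CPM against 3.84 to 49.1 CPM, Oas1a at 0 to 7.03 CPM against 16.3 to 83.3 CPM and Rtp4 at 0 to 7.45 CPM against 15.8 to 76.9 CPM, with log2 ratios of −3.82, −2.94 and −2.92. From the UMIs alone, Ifit3 in plasmacytoid cells was 0.00995 of its level in type 2 dendritic cells (95% counting interval 0.000250 to 0.0562). The other lower genes were Zbp1 (−2.57), Oas3 (−2.44), Ifi204 (−2.25), Ddx58 (−2.17), Ifih1 (−2.09), Xaf1 (−1.97), Isg20 (−1.93) and Slfn5 (−1.54), so that the lower set took in sensors and OAS genes. Without library 1 the counts were 3 (18.3%) and 13 (12.7%), with Ifi44 added above and Isg15 and Oasl2 below, and without library 3, 4 were higher. With gates of 1 more marker 5 were lower (9.85% of all genes), and with 1 fewer 6 (10.0%), both shares of ISGs nearer the background.

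Among lymphocytes, the ISGs that separated the classes were lower in B cells. Against T cells, B cells had 8 of 32 lower (25%, against 14.9% of all genes) and none higher (25% of genes). Isg15 was at 3.78 to 16.6 CPM against 30.4 to 127 CPM (log2 ratio −3.25). The next largest were Ifit1 (−2.88), Oas3 (−2.77), Ifih1 (−2.21), Rtp4 (−2.12), Zbp1 (−2.11), Irf7 (−2.08) and Slfn5 (−1.43). Without library 1, 8 were lower (16%) and 1, Stat2, was higher (28.0%). With 1 more marker asked for, 5 were lower (15.6%, near the 13.5% of all genes) and 2, Oasl1 and Ddx58, higher (22.1%).

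Neutrophils differed by granule stage. Granule-low neutrophils had 13 ISGs higher than granule-rich neutrophils (40.6%, against 17.3% of all genes) and none lower (17.4%), and all 32 log2 ratios were above 0, with a median of 1.34 against −0.09. Rsad2 was at 97.6 to 259 CPM against 12.2 to 50.7 CPM (2.55), Oasl2 at 96.6 to 229.5 CPM against 19.3 to 54.4 CPM (2.51), and Isg15 at 207 to 479 CPM against 46.2 to 112 CPM (2.40). In each of them the lowest granule-low library lay above the highest granule-rich one. The others were Slfn5 (2.54), Ifi204 (2.52), Rtp4 (2.45), Ifi27l2a (2.25), Trim30a (2.02), Isg20 (1.82), Rnf213 (1.31), Oas3 (1.17), Ifih1 (1.16) and Irf9 (1.09). The secondary-granule panel that defines the classes held 80652 CPM in granule-rich and 2605.5 CPM in granule-low neutrophils, which weighs on the totals. With the 50 most abundant genes left out of the totals, 7 ISGs were higher against 9.28% of genes, 30 of the 32 log2 ratios stayed above 0, and the medians were 0.96 and −0.47. With 1 more marker asked for, 8 were higher (14.7%). Without library 1, 17 were higher (20.2%), adding Ifit3, Oasl1, Zbp1 and Parp14, and none lower (19.3%).

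**Figure D3:**
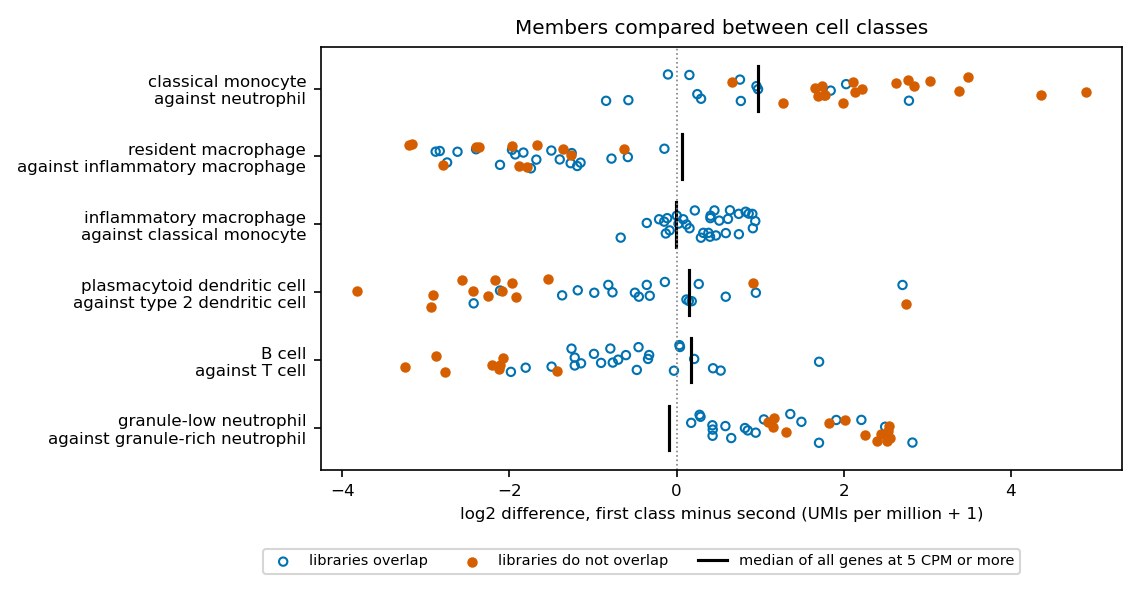
Log2 ratio of each ISG between the classes of 6 pairs, with 1 point per gene, filled where the 6 libraries of the classes do not overlap, and a black bar at the median of all genes at or above 5 CPM. All points lie below 0 for resident against inflammatory macrophages and above 0 for granule-low against granule-rich neutrophils.

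The spread between libraries depended on the class. The median ISG had a highest over lowest library of 6.80 in inflammatory macrophages, 4.49 in type 2 dendritic cells, 4.29 in classical monocytes, 3.66 in T cells, 3.18 in other macrophages, 2.77 in granule-rich and 2.66 in granule-low neutrophils, and 1.95 in B cells. An ISG with a library at 0 has no such ratio and was left out. This held for 4 ISGs in B cells, 3 in T cells, 3 in granule-rich and 2 in granule-low neutrophils and 1 in other macrophages. Among the ISGs with a ratio, the median spread was wider in each of the other 7 classes than in B cells of the same libraries. The most even gene was Irf9 in monocytes, inflammatory macrophages (1.78) and other macrophages (1.37), and Ddx58 in B cells (1.16) and in granule-low (1.84) and granule-rich (1.47) neutrophils. Of the ISGs with a ratio, the least even were Rsad2 in monocytes (19.8) and Ifit1 in inflammatory macrophages (19.8) and type 2 dendritic cells (40.2). In granule-low neutrophils it was Mx1 (15.1), whose level there was near 0. In monocytes the 12 genes with an ISRE core in the promoter window had a median highest over lowest of 3.87, and the 12 genes without one 5.19.

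Summed over the ISGs, granule-low neutrophils held 3207, 1605, 1557, 2220.3, 3073 and 2631 CPM in libraries 1 to 6, granule-rich neutrophils 999.9, 454, 653, 512, 845 and 632 CPM, and type 2 dendritic cells 5078, 1686, 2677, 1988, 2225 and 2263 CPM. T cells held 2681, 789.9, 1569.8, 1357, 1448 and 1353 CPM and B cells 1139.5, 819, 819, 964, 1224 and 1019 CPM. Library 1 was the highest in both neutrophil classes, type 2 dendritic cells and T cells, and library 5 in B cells. The distance to the next library differed between these classes and was smallest in granule-low neutrophils and B cells.

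Gene by gene, library 1 was the highest of the 6 libraries for 32 of 32 ISGs in classical monocytes, against 14.1% of all genes, and was at 2 times or more of the median of the others for 28 (3.92%). In inflammatory macrophages it was highest for 32 (14.5%) and at 2 times or more for 27 (2.13%), and in type 2 dendritic cells for 30 (13.1%) and 24 (2.11%). The counts at 2 times or more were smaller in other classes, with 14 ISGs in granule-rich neutrophils (6.57%), 11 in other macrophages (1.84%), 6 in granule-low neutrophils (4.10%), 6 in T cells (2.18%) and 4 in B cells (2.04%). In monocytes the median ISG was at 2.88 times the median of the other libraries, and the median gene at 0.92 times. In T cells library 6 was the highest for 16 ISGs (21.5%) and library 1 for 13 (13.2%), and library 6 was at 2 times or more for 11 (3.07%). Library 2 lay at the other end. It was the lowest library for 30 of 32 ISGs in other macrophages (29.7% of all genes), 26 in inflammatory macrophages (19.5%), 23 in classical monocytes (12.1%), 22 in type 2 dendritic cells (15.6%) and 21 in T cells (23.3%). Other measures of the monocytes moved with the library. In libraries 1 to 6 cycling cells made up 5.54, 18.2, 10.8, 15.2, 21.1 and 21.4% of them, mitochondrial UMIs 1.76, 2.44, 2.49, 2.13, 2.05 and 2.41%, and the neutrophil panel, a measure of RNA from other cells, was at 164, 198, 152, 222, 250.2 and 246 CPM. Library 1 had the lowest share of cycling cells and of mitochondrial UMIs, and a neutrophil panel within the range of the others. With cycling cells left out the highest over lowest library of the monocyte sum was 3.16 instead of 3.41, and the part of the mitochondrial share was not tested.

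**Figure D4:**
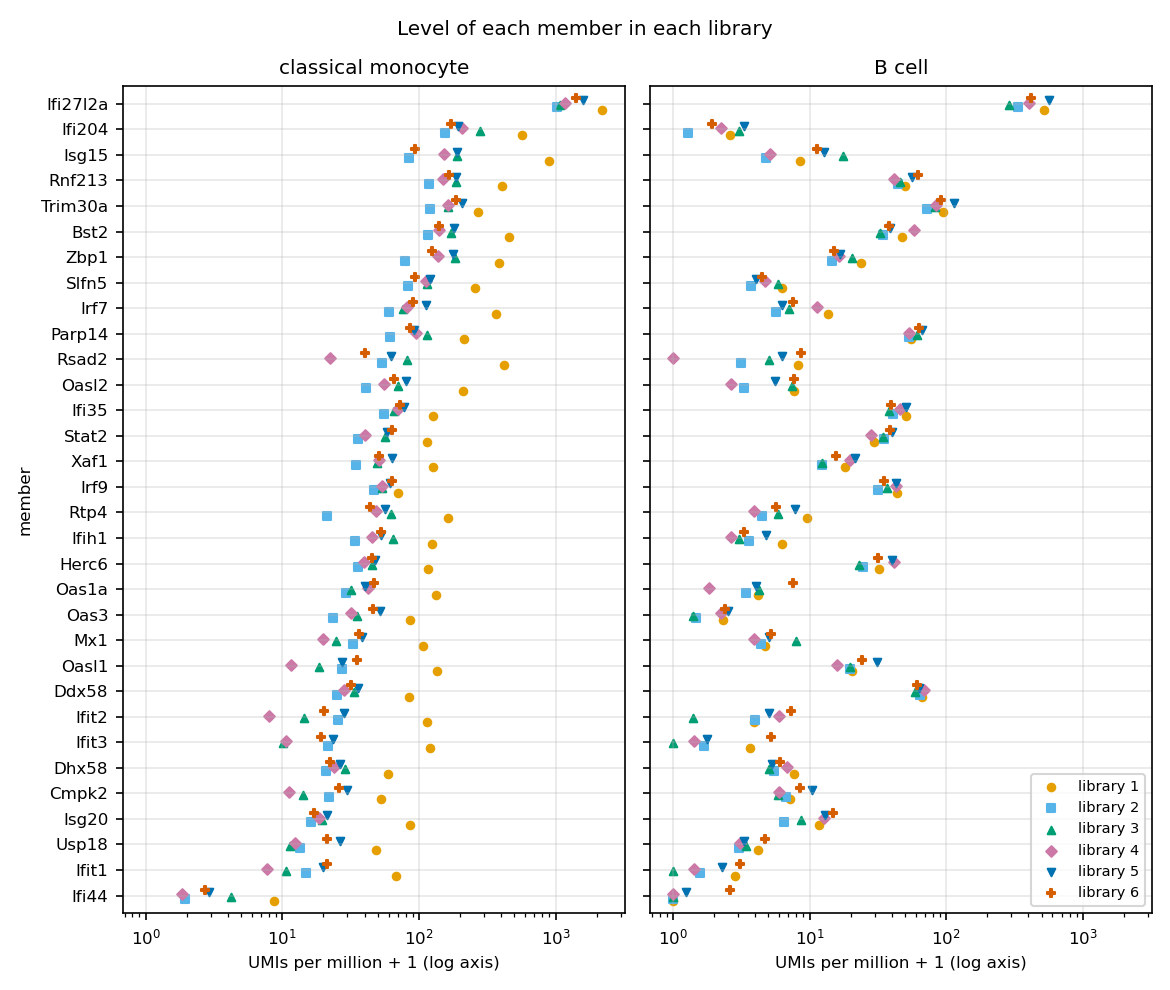
Level of each of the 32 ISGs in libraries 1 to 6, in CPM on a log axis, in classical monocytes (left) and B cells (right), with library 1 marked. In monocytes library 1 lies to the right for genes such as Isg15 (892 CPM against 84.0 to 190.2), while Irf9 is held between 46.0 and 68.7 CPM. In B cells the libraries lie closer together for the median ISG (highest over lowest 1.95, against 4.29 in monocytes), but Ifit2 spreads 15.5-fold.

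Cells were also compared at equal depth, each thinned at random to 2000 UMIs. An inflammatory macrophage then held 5.31 different ISGs on average, a classical monocyte 4.37, a plasmacytoid dendritic cell 3.16, a granule-low neutrophil 3.11, a T cell 2.00, a B cell 1.39, a granule-rich neutrophil 1.32 and an early neutrophil 0.643. Without thinning the means were 15.8, 13.2, 7.53, 5.39, 5.74, 3.11, 5.24 and 2.76. Thinning left out 15 monocytes, 57 granule-low neutrophils and 25 B cells for their lower depth. Monocytes with 10 or more ISGs made up 9.26% of the class, with 36.5, 5.22, 6.72, 4.79, 8.55 and 4.91% in libraries 1 to 6. The share was 14.1% of inflammatory macrophages (38.7, 3.82, 7.47, 7.27, 11.3 and 6.45%), and of granule-low neutrophils 4.11% (7.02, 1.52, 1.38, 3.60, 5.42 and 3.63%). It was 2.08% in plasmacytoid dendritic cells, 1.54% in T cells and 0.146% in B cells, whose median depths before thinning were 11519.5, 9148.5 and 5578.5 UMIs, against 15322 in monocytes. Cells with many ISGs were thus a larger share of monocytes and inflammatory macrophages than of the lymphocyte classes, and that share was highest in library 1. No ISG at all was found in 0.566% of plasmacytoid dendritic cells, 5.45% of monocytes and 28.8% of B cells. The tenth of cells with the most ISG UMIs held 22% of them in plasmacytoid dendritic cells and 35.7% in monocytes. It held 42.3% in granule-low and 72.2% in early neutrophils. ISG transcripts were thus spread most evenly over plasmacytoid cells among these classes. This share also depends on the ISG UMIs per cell, and Bst2 gave 2676 of the 4406 CPM in plasmacytoid cells. The part of either was not tested.

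**Figure D5:**
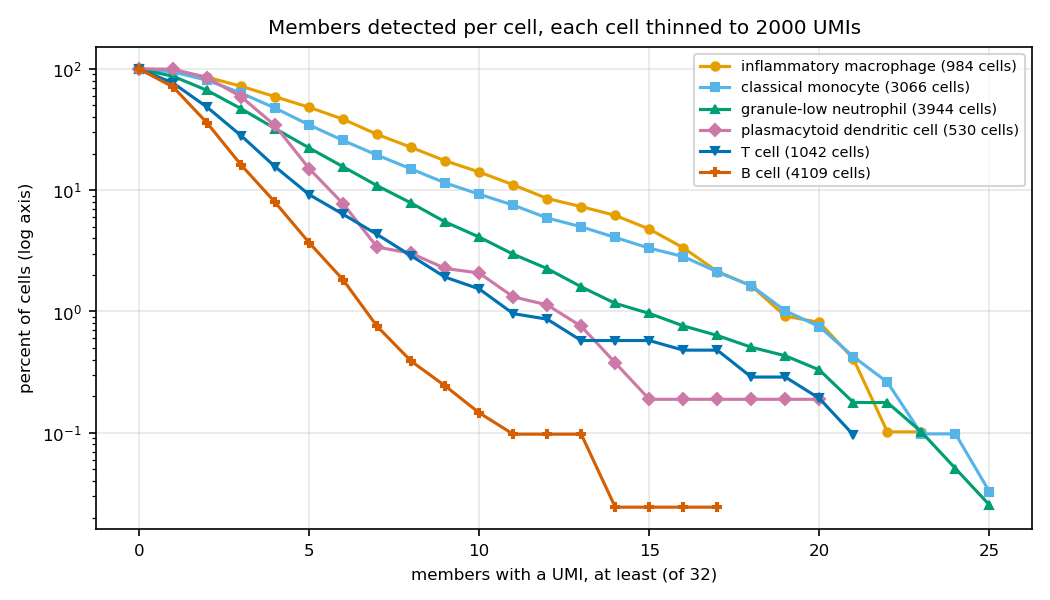
Share of cells, in percent on a log axis, with at least a given number of different ISGs after thinning to 2000 UMIs, in 6 cell classes. The curve of B cells drops early. Classical monocytes and inflammatory macrophages have a long tail, in which 9.26% and 14.1% of cells hold 10 or more.

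Cycling cells, defined by 3 or more of 5 proliferation genes, held less ISG transcript per UMI than other cells in monocytes and several further classes. Cycling monocytes (540 cells) held 2003 CPM (libraries 1282 to 2368) and the others 4457 CPM (2899 to 9149). The library ranges of cycling and other monocytes did not overlap. The values were 1799 and 2888 CPM in type 2 dendritic cells, 406 and 819 in granule-rich neutrophils, 173 and 417 in early neutrophils, 542 and 1004 in B precursors and 776 and 1011 in B cells. In T cells the order was not resolved, with 1741 CPM in 80 cycling cells (libraries 1008 to 3795) and 1528 CPM in other cells (760.5 to 2400.1), ranges that overlapped. They also overlapped in type 2 dendritic cells, B cells and, narrowly, granule-rich neutrophils, but not in B precursors or early neutrophils.

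Upstream genes of the pathway were listed apart from the ISGs. Of 18 type I interferon genes 3 were in the table, with 73 UMIs among all 32953 cells. They were Ifnb1 (49 UMIs in 12 cells), Ifnk (23 UMIs) and Ifnz (1 UMI). Ifng, the type II interferon gene, had 1829 UMIs and was at 114 CPM in NK cells and 99.3 CPM in T cells. Transcripts of the type I ligands measured were thus scarce in these cells on day 3. The receptor chain Ifnar2 was at 135 CPM over all cells and 403 CPM in plasmacytoid dendritic cells, and Ifngr1, of the IFN-γ receptor, at 191 CPM, with 905 in NK cells and 701 CPM in T cells. Ifngr2 was at 91.6 CPM and Il10rb, shared by the IL-10 and IFN-λ receptors, at 70.1 CPM. Of the signalling genes, Stat3 was at 338, Jak1 at 259 and Jak2 at 138 CPM. Irf8, a factor needed for dendritic cell development, led the inducers of interferon genes at 127 CPM, with 1701 CPM in plasmacytoid dendritic cells. It was followed by Irf1 (87.2), Irf5 (78.3) and the kinase gene Tbk1 (66.4 CPM). Of the feedback inhibitors, the phosphatase genes Ptpn1 and Ptpn6 were at 234 and 170.3 CPM, Pias1 at 126 and Socs3 at 110.1 CPM, with 444 CPM in resident macrophages.

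These lists were counted in the same class pairs and against the same background. In granule-low against granule-rich neutrophils 5 of 6 receptors, 4 of 6 feedback inhibitors and 4 of 14 inducers were higher, against 17.3% of all genes. Of 5 kinases and STATs 3 were higher. Of 43 further ISGs that were not among the 32, 13 were higher (30.2%, against 17.3% of all genes) and 1 lower (against 17.4%). In resident against inflammatory macrophages 12 of these 43 (27.9%) and 3 of 6 receptors were lower, against 9.52%. The other upstream lists went both ways there. Of 5 kinases and STATs 2 were higher (15.7% of all genes) and 1 lower. Of 14 inducers 1 was higher and 2 lower, and of 6 feedback inhibitors 1 was higher and 1 lower. Plasmacytoid against type 2 dendritic cells gave 2 of the 43 higher (4.65%, against 15.3% of all genes) and 9 lower (20.9%, against 10.6%). Receptors and inducers leaned the other way there. Of 6 receptors 3 were higher and 1 lower, and of 14 inducers 4 were higher and 2 lower. B against T cells gave 5 of the 43 higher (11.6%, against 25%) and 14 lower (32.6%, against 14.9%). Of 14 inducers 5 were higher and 4 lower in B cells, and of 6 feedback inhibitors 2 were higher and 3 lower. Of 6 receptors 2 were lower, and of 5 kinases and STATs 3. Inflammatory macrophages against monocytes gave none of the 43. Monocytes against neutrophils gave 27 of the 43 higher (62.8%, near the 60.9% of all genes) and 2 lower (4.65%, against 10.8%). In the first 4 of these pairs the further ISGs thus counted more often in the direction of the 32. Their list was chosen with earlier results of these data known, and some of its genes may share reads with the 32. The further ISGs are therefore no independent support. The most abundant of them were Ifitm3 (1171 CPM over all cells, 3122 in monocytes and 11.6 in B cells), which blocks virus entry, Ly6e (671), Slfn2 (344) and Sp100 (255 CPM).

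Genes outside the lists were ranked by the Pearson correlation of their log2(CPM + 1), centred in each class, with the mean of the 32 ISGs over 48 points (8 classes in 6 libraries). The points of 1 library share its depth and cells, so the correlations describe these libraries and carry no test. The 10 highest on no list were Nt5c3 (r = 0.88, 0.76 without library 1), Gm4955 (0.84, 0.50), Trafd1 (0.84, 0.74), Pydc4 (0.84, 0.61), H2-T22 (0.83, 0.75), Ogfr (0.82, 0.66), Ube2l6 (0.79, 0.62), BC094916 (0.78, 0.54), Nmi (0.78, 0.64) and Pyhin1 (0.76, 0.61). Ube2l6 encodes the conjugating enzyme of ISG15. Another 13 genes down to the same rank were on the list of further ISGs. All 10 values were lower without library 1, by the most for Gm4955.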

How the data were processed

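The authors deposited 1 matrix of UMI counts (genes by cells, mm10), with gene and barcode lists, made with Cell Ranger version 7 per the labels' processing notes. By the study's methods, ambient RNA was removed with SoupX, doublets with DoubletFinder, and cells were filtered on genes and mitochondrial share in Seurat; no further doublet call was made. Cells passing the panels of more than 1 lineage were set apart as mixed. Counts were summed per class and library in Python 3.11.15 (numpy 2.4.6, scipy 1.17.1, pandas 2.3.3; figures with matplotlib 3.10.9) and divided by the total UMIs of that class or library. A class needed a UMI in 3 markers of its panel of 5 (3 of 6 for B cells, 4 of 6 for neutrophils); inflammatory macrophages needed 2 inflammatory and at most 1 resident marker. These gates were set after the files were seen, without the ISGs. The planned quasi-likelihood comparison of PEPITEM with PBS was not run, because the library numbers are not in the labels. Named were all ISGs present, up to 4 of the highest genes of each pathway list and the 10 genes on no list most like the ISG mean, at 5 CPM or more. Ratios used CPM + 1. The members and lists were chosen with earlier results of these data known. The scripts were tested on simulated data. Explicit zeros made up 2.25% of the stored values of the ISGs and 1.68% of all stored values. Near-identical copies (Ifit3b, Oas1g and the Ifi204 family) may share reads. Another gene that this rule would name from the pathway lists is not reported here.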

Additional observations from a re-analysis of the deposited data

How the results depend on the processing

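No paired analysis was possible because the library numbers carry no treatment or replicate label; for the same reason a comparison of PEPITEM with PBS and its alternatives (DESeq2, no filter, leaving out a replicate, a replicate block) were not run. In order of classical monocytes, granule-low neutrophils, plasmacytoid dendritic cells and B cells, the summed ISG level of 3862, 2564, 4406 and 966 CPM became 3634, 2407, 4577 and 1015 CPM with 1 more marker needed, 4699, 3773, 5122 and 1134 CPM with the 50 most abundant genes left out of the total, 4034, 2793, 4575 and 998.0 CPM with each cell weighted alike, and 2457, 2028, 3816 and 559 CPM without Ifi27l2a. With 1 marker fewer, monocytes, granule-low neutrophils and B cells were at 4064, 2745 and 999.9 CPM. This gate did not make larger classes of monocytes and B cells. It left 961 monocytes instead of 3081 and 2708 B cells instead of 4134, with 4069 granule-low neutrophils instead of 4001. With cycling cells left out, an alternative chosen after seeing the data, monocytes, plasmacytoid cells and B cells were at 4457, 4518 and 1011 CPM. Leaving out 1 library gave 3312 to 4130, 2343 to 2712, 4198 to 4621 and 923 to 1057 CPM. The highest over lowest library was 3.41 in monocytes, 2.06 in granule-low neutrophils and 1.5 in B cells. In monocytes it was 3.66 with 1 more marker, 3.01 with 1 fewer, 3.17 with equal weights, 4.29 without Ifi27l2a and 3.16 without cycling cells. In granule-low neutrophils it was 2.53 with 1 marker fewer and 2.24 with equal weights, and in B cells 1.58 with 1 marker fewer, 1.35 without Ifi27l2a and 1.42 without cycling cells. Leaving out 1 library gave 1.57 (without library 1) to 3.41, 1.97 to 2.06 and 1.39 to 1.5.

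With 1 more marker, 6 ISGs were lower in resident than in inflammatory macrophages (8.75% of all genes), 5 in plasmacytoid than in type 2 dendritic cells (9.85%) and 5 in B than in T cells (13.5%, near the 15.6% of ISGs), and 8 were higher in granule-low than in granule-rich neutrophils (14.7%). With 1 fewer, 6 were lower in plasmacytoid cells (10.0%), and with the 50 genes left out 7 were higher in granule-low neutrophils (9.28%). Leaving out 1 library gave 12 to 24 for resident macrophages (24 without library 2, 14.0% of genes), 0 to 1 for inflammatory macrophages above monocytes (1 without library 1, 9.08%) and 2 to 4 above type 2 dendritic cells (4 without library 3, 18.7%). The cause was not tested. With no filter on low values the background fell to 35.3% for monocytes against neutrophils, 4.80% for resident macrophages, 3.61% for inflammatory macrophages, 5.59% for plasmacytoid cells, 9.65% for B cells and 8.98% for granule-low neutrophils, since more low genes were tested. The mean number of ISGs per cell was 2.63 and 7.72 in monocytes, 1.91 and 4.95 in granule-low neutrophils and 0.786 and 2.65 in B cells at 1000 and 5000 UMIs. With windows from 100 bases before the start, 7 promoters held the ISRE core (29.2%, against 1.69% of all symbols). The GAS motif was in 3 (12.5%, against 4.55%). Of the log2 ratios of single ISGs under these alternatives, 2157 stayed as they were, called or overlapping, 76 gained a call, 65 lost one and no called ratio changed sign. Leaving out 1 library cannot lose or reverse a call, and leaving out Ifi27l2a leaves the other ratios as they are. These settings gave 1096 and 186 of the unchanged ratios, and leaving out 1 library gave 56 of the gains. All 65 losses came from the other alternatives, 21 of them with 1 more marker and 8 with cycling cells left out. With 1 marker fewer, the 50 genes left out and equal weights 12 were lost each. Ratios that overlapped had no call to lose, so the 2157 are no base for the losses. The main setting called 19 ISGs for monocytes against neutrophils, 12 for resident macrophages and 0 for inflammatory macrophages. It called 2 higher and 11 lower for plasmacytoid cells, 8 for B cells and 13 for granule-low neutrophils.

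The level of a class is limited by its cells, since several classes held few cells in a library, and by RNA of other cells left in droplets, whose part in low levels was not tested. Between libraries, treatment, animal and preparation cannot be told apart.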

Other observations

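Library 1 fell apart from the other 5 libraries in the summed ISG level of classical monocytes (8546 against 2507 to 3933 CPM), inflammatory macrophages (8986 against 2095 to 4864 CPM) and type 2 dendritic cells (5078 against 1686 to 2677 CPM), but not of plasmacytoid dendritic cells, where its 5105 CPM lay below library 5. ISGs outside the set moved with it, since 23 of 43 further ISGs were at 2 times or more of the median of the others in library 1 in monocytes (3.92% of all genes), 19 in inflammatory macrophages (2.13%) and 17 in type 2 dendritic cells (2.11%). In plasmacytoid dendritic cells Bst2 held most of the sum, so the sum does not show how the other ISGs moved. Single ISGs differed there in which library was the highest. Irf7 was highest in library 1, at 157 CPM over a range from 46.9 CPM, and Trim30a in another library. The treatment of library 1 is not known from the labels.

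T cells gave another order of libraries. Library 6 was the highest for 16 of 32 ISGs (21.5% of all genes) and library 1 for 13 (13.2%). In T cells of libraries 1 to 6 Herc6 was at 58.1, 38.1, 39.1, 37.5, 43.5 and 84.8 CPM, Rsad2 at 10.2, 3.32, 6.96, 7.39, 8.23 and 29.5 CPM and Usp18 at 7.27, 9.40, 2.68, 7.39, 12.4 and 29.5 CPM. Library 6 led for each of these, whereas Ifi27l2a was at its lowest there, so the sum over ISGs did not show it. The values rested on 190 T cells of library 6, of which 2.63% were cycling, against 5.82 to 11.3% in the others.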
